A study of Mus musculus with 9 samples.

Results

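The guanylate-binding proteins (GBPs) and the immunity-related GTPases (IRGs) are families of IFN-inducible GTPases, and 10 of their mouse genes were followed here in R848-stimulated pDCs: *Gbp2*, *Gbp3*, *Gbp4*, *Gbp5*, *Gbp6*, *Gbp7*, *Irgm1*, *Irgm2*, *Igtp* and *Iigp1*. They were chosen by gene symbol, with earlier results of these data known, and all 10 were found among the 52550 genes listed. GBPs and IRGs are cell-autonomous defence proteins. They gather on the membranes that surround intracellular bacteria and parasites, disrupt them, and expose the microbe or its products to cytosolic sensors. Effector IRGs such as Iigp1 attack these vacuoles, whereas the regulatory IRGs (Irgm1, Irgm2 and Igtp) sit on the cell's own membranes and hold the effectors inactive there. Their transcription is induced downstream of type I IFN and IFN-γ, and pDCs, the dendritic cells specialized in type I IFN production, also respond to the IFN that they release.

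The study asked how the *Ncf1* variant that encodes p.R90H acts in pDCs. Splenic pDCs were sorted from C57BL/6 mice of 3 genotypes, WT (G/G), heterozygous KI (G/A) and homozygous KI (A/A), with the allele introduced by CRISPR/Cas9, and all were cultured with R848, a TLR7/-8 ligand, for 12 hours before RNA-Seq. There were 3 samples of each genotype and no unstimulated sample. The methods state that mice were female and 10 to 12 weeks old. Here 1 library was used, A/A replicate 1, and the other 8 samples were not analysed here, so no genotypes were compared and no value carries a replicate error. The library held 31408298 reads on 17664 genes. Levels are in CPM, a gene's share of this total times 1000000, and in reads per kilobase of exon (the union of annotated exons), the scale used to set genes against each other unless CPM is named. The 95% confidence intervals (Wilson) cover counting error only. The gene-level values do not separate the *Ncf1* alleles.

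Markers fitted the pDC label. All 8 pDC markers had reads, with a median of 458 CPM and a sum of 6522, and *Bst2* was the highest per kilobase of exon, at 57646 reads. Conventional DC markers summed to 515 CPM, of which *Cd8a*, which some pDCs also express, made up 332 CPM. *Zbtb46* had 106 CPM, *Clec9a* had 73.9 and *Cd209a* was at 0. The pDC markers *Cox6a2* (65.6 CPM) and *Klk1* (46.2 CPM) were below *Zbtb46* and *Clec9a* in CPM, but above them per kilobase of exon. In CPM 6 of the 8 pDC markers were above percentile 90. Macrophage markers summed to 102 CPM, and *C1qa* was the highest of them per kilobase of exon at 287.5 reads. Neutrophil markers summed to 45.6 CPM, with *S100a8* highest at 664 reads per kilobase and *Ly6g* at 0. B cell markers summed to 6.69 CPM, with *Cd79a* highest at 50.1 reads per kilobase and *Pax5* at 0. Of the erythroid markers, *Hba-a1* had 2.83 CPM, and *Hbb-bs* was at 0. None of the 4 T cell or 3 NK cell markers had reads, which allows up to 0.0955 CPM at a floor of 3 reads. The part of other cells in the levels below was not tested. The sex stated in the methods was not seen in the RNA, as the Y-linked *Ddx3y* had 102 CPM and *Xist* was at 0.

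All 10 GTPase genes were among the most abundant transcripts of this A/A library. Together they held 211995 reads, or 6749.65 CPM (95% CI, 6721 to 6778), which was 0.675% of all reads. Their median level was 529.8 CPM, against 6.34 CPM over all genes with reads. In reads per kilobase of exon the median was 3672, against 59.6 over all genes with reads, a 61.6-fold distance. In CPM all 10 stood above percentile 90 of the genes with reads, a range that holds 10% of genes by definition, and their median percentile was 98.3. The lowest, *Gbp5*, stood at percentile 94.1 in CPM and 88.9 in reads per kilobase of exon, and the other 9 were above percentile 90 on both scales.

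*Gbp2* led the GBPs. This prenylated GTPase is recruited to *Toxoplasma* vacuoles and to cytosolic bacteria and is needed for resistance to both. The gene (ENSMUSG00000028270.12, chromosome 3, 142620602 to 142638008 of GRCm38, plus strand) carried 52522 reads. Its level was 1672 CPM (95% CI, 1658 to 1687), percentile 99.6. It had 20875 reads per kilobase of exon (95% CI, 20698 to 21054), and it held 24.8% of the reads of all 10.

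The other GBPs of the chromosome 3 cluster were lower. *Gbp3* (ENSMUSG00000028268.14, 142560026 to 142573209, plus strand), whose product also reaches parasite vacuoles, had 12733 reads, 405 CPM (95% CI, 398 to 413) and 3899.9 reads per kilobase of exon (95% CI, 3833 to 3968). *Gbp7* (ENSMUSG00000040253.15, 142530342 to 142550149, plus strand) had 9082 reads, 289 CPM (95% CI, 283 to 295) and 1618 reads per kilobase (95% CI, 1585 to 1651). Gbp7 has been described as a carrier of NADPH oxidase subunits to phagosomes, the enzyme complex to which NCF1 belongs. *Gbp5* (ENSMUSG00000105504.4, 142493978 to 142522344, plus strand), known for promoting inflammasome assembly, had 5305 reads, 169 CPM (95% CI, 164 to 174) and 799 reads per kilobase (95% CI, 778 to 821). It was the lowest of the 10 on both scales, at 26.1-fold below *Gbp2* per kilobase of exon and 9.90-fold below it in CPM.

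The chromosome 5 cluster contributed a pair of GBPs with closely related coding sequences. *Gbp6* (ENSMUSG00000104713.4, chromosome 5, 105270702 to 105293698, minus strand), another vacuole-associated GBP, had 17215 reads, 548 CPM (95% CI, 539.98 to 556) and 2891 reads per kilobase of exon (95% CI, 2848 to 2935). *Gbp4* (ENSMUSG00000079363.7, chromosome 5, 105115767 to 105139586, minus strand), described as a brake on IRF7, had 16068 reads, 512 CPM (95% CI, 504 to 519.6) and 2144 reads per kilobase (95% CI, 2111 to 2178). *Gbp6* was higher than *Gbp4* with reads as deposited, and reads were not recounted without the bases that *Gbp6* shares with other genes. Multiplied by the share of exon bases free of other genes, the order turned, at 389 CPM for *Gbp6* and 507 for *Gbp4*. This scaling is arithmetic on the annotation and no test of the reads. Exons of *Gm43302*, an annotated gene on the same strand with 3063 reads, covered 29.0% of the *Gbp6* exon bases. Of the 50-base windows in *Gbp6* transcripts, 65.0% occurred identically in *Gm43302* and 45.9% in *Gbp10*, so the counting could have split reads between these genes. These windows are shorter than the paired reads, and read assignment was not tested.

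Among the IRGs, the regulators were abundant. *Igtp* (*Irgm3*, ENSMUSG00000078853.8, chromosome 11, 58199556 to 58207591, plus strand), a regulator found on the endoplasmic reticulum and lipid droplets, had 17325 reads, 552 CPM (95% CI, 543 to 559.9) and 8568 reads per kilobase of exon (95% CI, 8442 to 8697). *Irgm1* (ENSMUSG00000046879.7, chromosome 11, 48861968 to 48871683, minus strand), which localizes to Golgi, mitochondria and lysosomes and without which mice succumb to many intracellular pathogens, had 36205 reads, 1153 CPM (95% CI, 1141 to 1165) and 6232 reads per kilobase (95% CI, 6168 to 6296). *Irgm2* (ENSMUSG00000069874.7, chromosome 11, 58199618 to 58222782, plus strand), a Golgi-bound regulator that restrains the noncanonical inflammasome, had 12712 reads, 405 CPM (95% CI, 398 to 412) and 3445 reads per kilobase (95% CI, 3386 to 3505). Both *Irgm1* (1.81-fold) and *Igtp* (2.49-fold) were above *Irgm2* per kilobase of exon. The folds depended on length, at 2.85 and 1.36 in CPM, 2.83 and 1.31 per length of the longest coding sequence and 2.62 and 2.38 per length of the longest transcript, a comparison added after the data were seen. The effector *Iigp1* (*Irga6*, ENSMUSG00000054072.11, chromosome 18, 60376029 to 60392627, plus strand), which coats *Toxoplasma* and *Chlamydia* vacuoles, had 32828 reads, 1045 CPM (95% CI, 1034 to 1057) and 5638 reads per kilobase (95% CI, 5577 to 5699). It lay between *Irgm1* and *Irgm2* per kilobase of exon, but above all 3 regulators with the longest transcript. *Igtp* was the highest of the 4 IRGs with the union of exons, and below *Irgm1* and *Iigp1* with the longest transcript, with the longest coding sequence and in CPM.

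Ordered by reads per kilobase of exon, the 10 genes ran *Gbp2*, *Igtp*, *Irgm1*, *Iigp1*, *Gbp3*, *Irgm2*, *Gbp6*, *Gbp4*, *Gbp7* and *Gbp5*. The intervals of neighbours overlapped in none of the 9 adjacent pairs, and the closest pair, *Irgm1* and *Iigp1*, differed 1.11-fold. The deposited coordinates of *Iigp1*, alone of the 10, differ from those of the annotation used for lengths, so its place next to *Irgm1* rests on a length that may not be the one counted. The order was sensitive to the length used. *Gbp2* was the highest, *Gbp7* the ninth and *Gbp5* the lowest with the union of exons, the longest transcript, the longest coding sequence or no length at all, whereas the other 7 genes changed place under at least 1 of these. In CPM, with no length, *Igtp* and *Gbp6* could not be told apart by counting error, nor could *Gbp3* and *Irgm2*. The 6 GBPs summed to 3595 CPM (95% CI, 3575 to 3616) and the 4 IRGs to 3154 CPM (95% CI, 3135 to 3174). The median IRG had 5935 reads per kilobase of exon and the median GBP 2518.

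**Figure D1:**
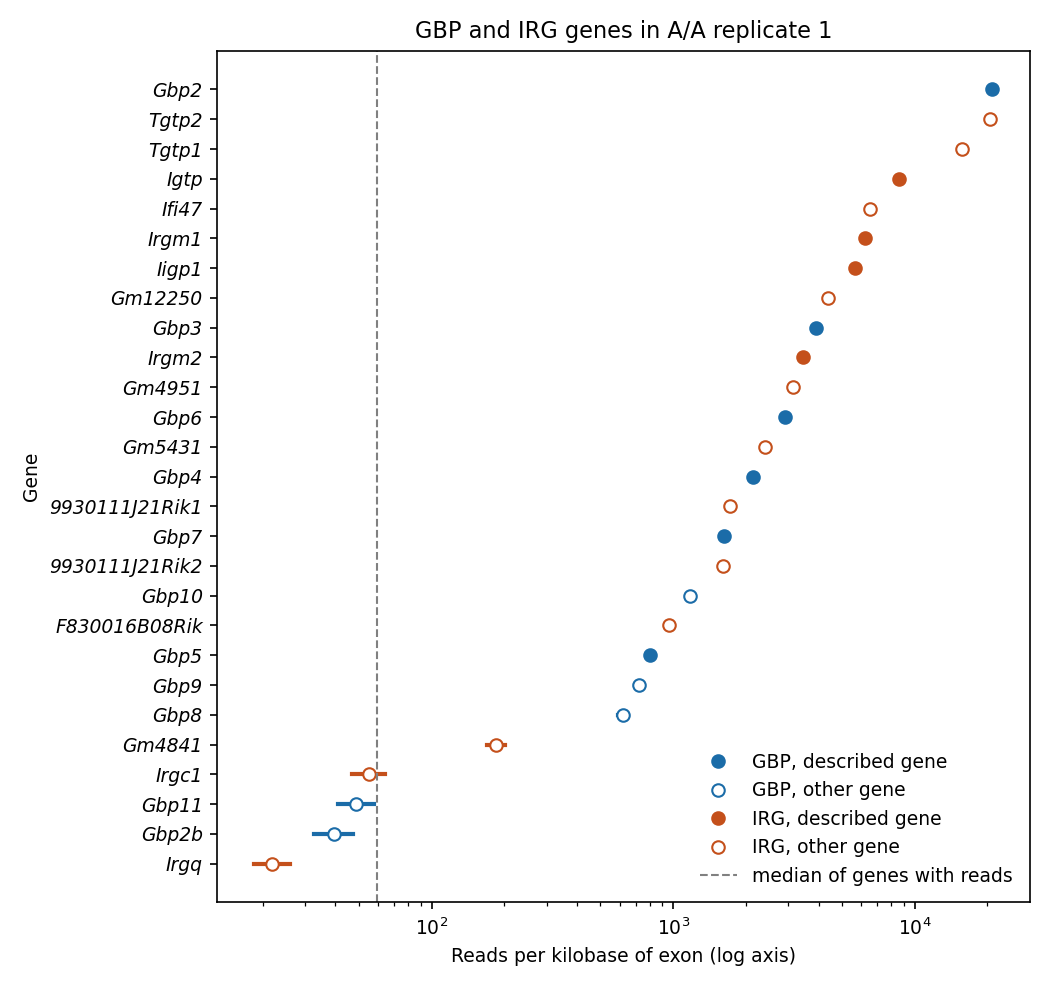
Reads per kilobase of exon (log axis) of the 27 listed GBP and IRG genes in A/A replicate 1, with Wilson 95% intervals as lines that are hidden behind the points at high depth. Filled points are the 10 described genes, open points the other 17 genes, and the dashed line is the median of all genes with reads (59.6); *Gbp2* and *Tgtp2* lie at the top and *Irgc1*, *Gbp11*, *Gbp2b* and *Irgq* below the line.

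Beside the remaining genes of both families, the 10 stood mostly in the upper range. Because the 10 were chosen with earlier results of these data known, this comparison is a description only. All 27 GBP and IRG genes listed had reads, 21 of them above percentile 90 in CPM and 19 per kilobase of exon, with a median of 289 CPM and a sum of 12615 CPM, of which the 10 genes held 53.5%. The other 17 had a median of 1169.6 reads per kilobase of exon, against 3672 for the 10. That median is the value of *Gbp10*, and 84.1% of the 50-base windows of its transcripts occurred in other genes. The share was 83.2% for *9930111J21Rik1* and 59.8% for *9930111J21Rik2*, and read assignment was not tested for these genes. *Tgtp2* had 60479 reads and *Tgtp1* had 50092. These encode the effector IRG Irgb6, and they held 27.9% of all GBP and IRG reads. Per kilobase of exon, *Tgtp2* had 20585 reads (95% CI, 20422 to 20749.6), an interval that overlapped that of *Gbp2*. The split between *Tgtp1* and *Tgtp2* is uncertain, because 79.4% of the 50-base windows of *Tgtp1* transcripts were identical in *Tgtp2*. *Ifi47* (*Irgd*) had 6532 reads per kilobase and stood between *Igtp* and *Irgm1*. At the low end were *Irgc1*, *Gbp11*, *Gbp2b* and *Irgq*, each under the library median per kilobase of exon, with 54.9, 48.7, 39.3 and 21.9 reads.

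The genes lie in clusters, and levels within a cluster were uneven. On chromosome 3, *Gbp5*, *Gbp7*, *Gbp3*, *Gbp2b* and *Gbp2* follow each other within 144 kb and summed to 2539 CPM. *Gbp2b*, formerly *Gbp1*, is the immediate neighbour of *Gbp2*, and their coding sequences were 82.5% identical. It had 111 reads where *Gbp2* had 52522, a 531-fold difference in reads per kilobase of exon. Of this pair, 2.03% of the 50-base windows of *Gbp2* transcripts occurred in *Gbp2b*. The pseudogene *Gbp2-ps*, on the other side of *Gbp2*, was at 0, and *Pdlim5*, next to *Gbp5* outside the cluster, had 42.9 CPM.

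On chromosome 5, *Gbp8*, *Gbp9*, *Gbp4*, *Gbp10*, *Gbp6* and *Gbp11* lie within 332 kb and summed to 1394 CPM. *Gbp4* was 3.46-fold higher than *Gbp8* per kilobase of exon (7.54-fold in CPM), although the annotation gives these genes and *Gbp9* nearly the same start and 60 or 61 shared exon bases. *Gbp11*, adjacent to *Gbp6*, had 131 reads, and *Gm26519* beyond it was at 0.

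The 4 IRGs lie on chromosomes 11 and 18, and *Irgc1* and *Irgq*, of the wider family, on chromosome 7. *Irgm1* opens a 235 kb stretch of chromosome 11 that also holds *Gm5431*, *9930111J21Rik1*, *Tgtp1*, *9930111J21Rik2*, *Tgtp2* and *Ifi47*, with 6110.2 CPM together, the highest sum of any cluster here. *Trim7*, the nearest coding gene before *Irgm1*, had 8.15 CPM. *Igtp* and *Irgm2* lie on the same chromosome in a second stretch of 35.0 kb with *Gm12250* (*Irgb10*). Per kilobase of exon *Gm12250* had 4365 reads, more than *Irgm2*, but in CPM it was lower, at 177 against 405. The annotation used for lengths gives *Gm12250* as a processed pseudogene with 1274 exon bases (58187739 to 58189012). Its RefSeq promoter (58183593 to 58183892) lies outside that span, so this length may be incomplete. The annotated spans of *Igtp* and *Irgm2* overlap on the plus strand, and they share 162 exon bases, 8.01% of those of *Igtp* and 4.39% of those of *Irgm2*. Of the genes flanking this stretch, *Mrpl22* had 10.4 CPM and *4930438A08Rik* was at 0. On chromosome 18, *Iigp1* had 5638 reads per kilobase of exon and *Gm4951*, whose coding bases were 88.0% identical to it, had 3146. *F830016B08Rik* had 965 and *Gm4841* had 185 reads per kilobase. For *Iigp1*, 1.69% of the 50-base windows of the transcripts occurred in another gene.

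**Figure D2:**
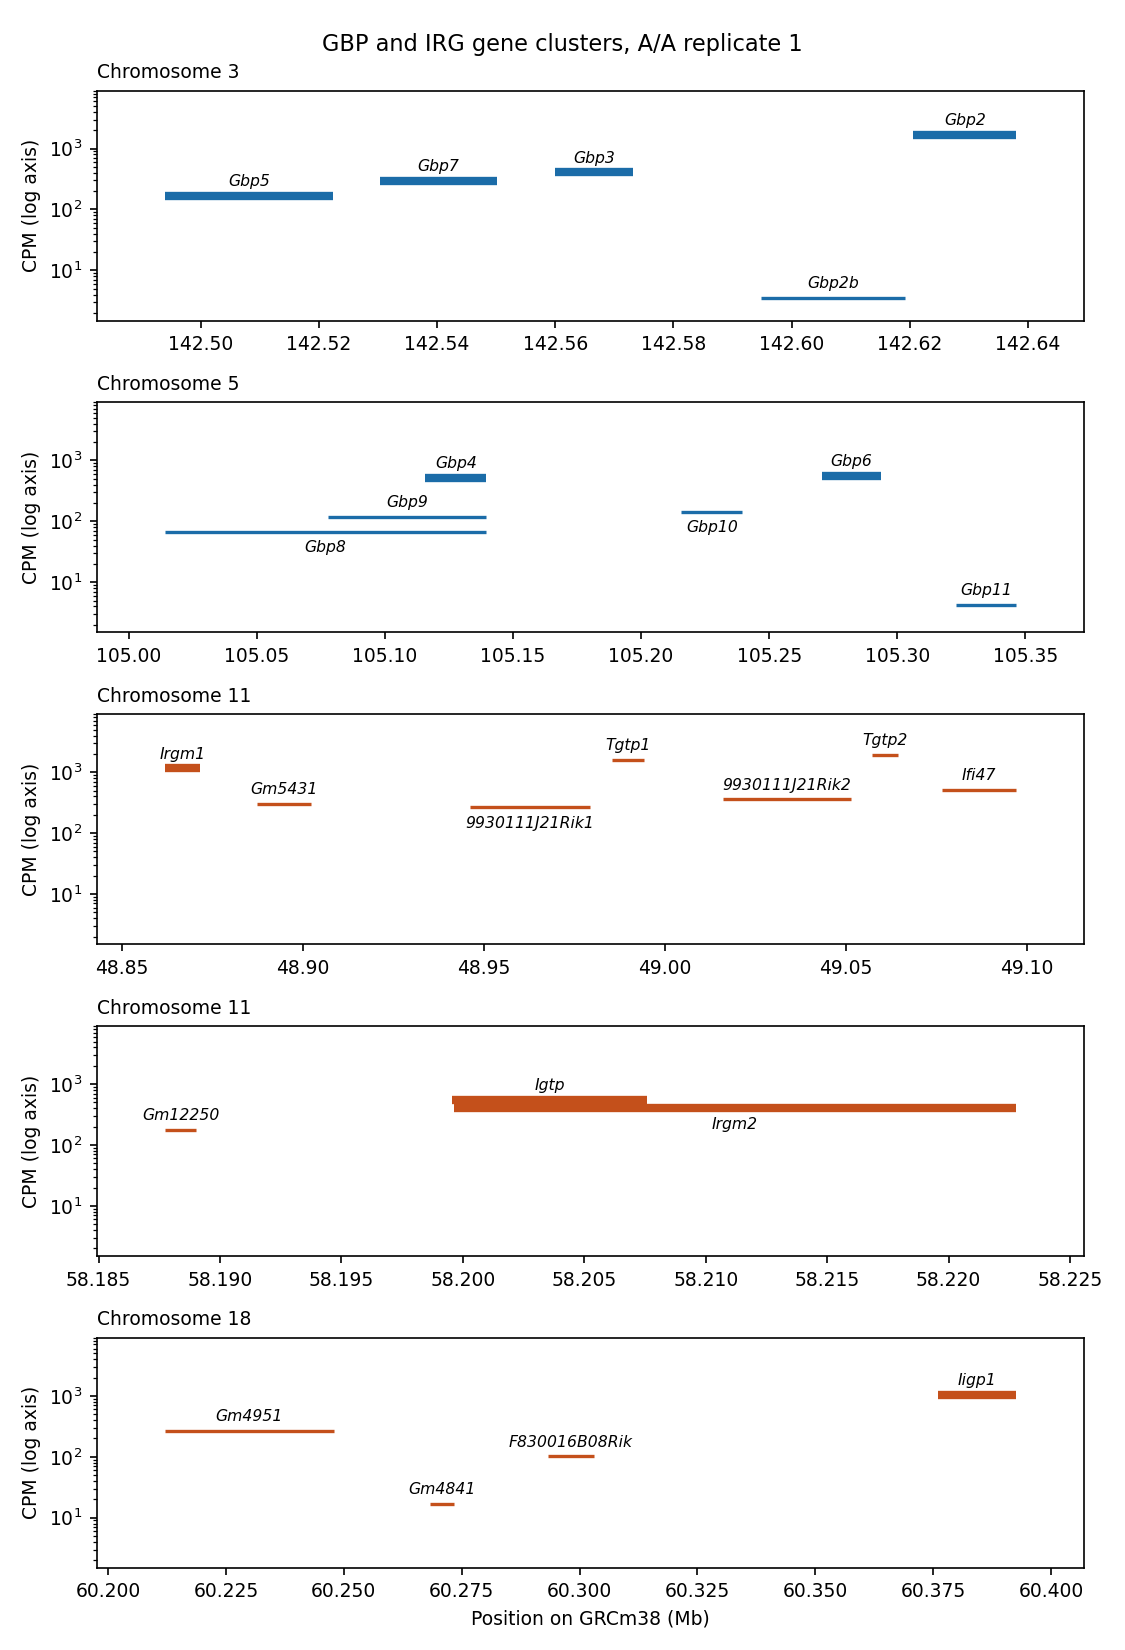
Position on GRCm38 (Mb, horizontal axis) and level in CPM (log axis, vertical) of the GBP genes (blue) and IRG genes (orange) in 5 clusters of A/A replicate 1, where each bar spans a gene and thick bars are the 10 described genes. *Gbp2b* (3.53 CPM) lies beside *Gbp2* (1672 CPM) on chromosome 3, and *Gbp11* (4.17 CPM) beside *Gbp6* (548 CPM) on chromosome 5.

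Coding sequences were compared pair by pair. Among the 15 pairs of the 6 GBPs, identity of aligned coding bases ran from 60.2% to 90.6%, with a median of 62.6%. *Gbp4* and *Gbp6* were the closest pair at 90.6%, followed by *Gbp3* and *Gbp7* at 78.3%. *Gbp2*, the highest, was closest to *Gbp5*, the lowest, at 70.5%. The 6 IRG pairs were more distant, from 50.9% to 70.4% with a median of 59.5%, and the regulators *Igtp* and *Irgm2* were the closest pair, while *Iigp1* shared 50.9% to 53.9% with the 3 regulators. Identical 50-base windows were scarce outside *Gbp6*. They made up 12.7% of the windows of *Gbp7*, 11.8% for *Igtp*, 7.83% for *Irgm2*, 7.78% for *Gbp4*, 3.75% for *Gbp3*, 1.44% for *Gbp5* and 0.379% for *Irgm1*. Those of *Gbp7* were mostly with the pseudogene *Gm43802*, which had 5 reads. *Gm43802* is annotated on the same strand over 11.3% of the *Gbp7* exon bases, and how reads there were assigned was not tested.

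Promoters were then searched for the motifs through which IFN signals act, since these genes are known to respond together. The promoter sequences (RefSeq, GRCm38.p6) run from 250 bases before the transcription start to 50 bases after it, and 7 of the 10 genes were matched (not *Gbp4*, *Gbp6* or *Iigp1*). The core of the IFN-stimulated response element (ISRE), bound by IRF factors, was spelled as GAAA, any 2 bases and GAAA again, on either strand. It was found in 7 of 7, and in 12 of the 16 GBP and IRG genes with a promoter. It occurred in 3.44% of the 32851 promoters and in 3.99% of the 27025 genes with a promoter. The IFN-γ-activated site (GAS), TTCNNNGAA, reads the same on both strands. It occurred in 4 of the 7 genes (*Gbp5*, *Gbp7*, *Irgm2* and *Igtp*), in 7 of the 16 of both families and in 9.55% of the genes with a promoter (8.30% of all promoters). *Gbp3* and *Irgm1* carried a longer form with 3 copies of GAAA, each 2 bases apart, which contains overlapping ISRE cores and was found in 0.133% of the genes with a promoter (0.116% of all promoters). A match is a description of the letters in these windows, and binding was not measured.

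The windows around the matches are shown for the GBPs of chromosome 3 and for *Irgm1*, because genes with very different levels per length carry the same core there. Capitals mark ISRE and GAS matches, with 20 bases on either side. An ISRE core on the opposite strand reads as TTTC, 2 bases and TTTC, and the GAS matches of *Gbp5* lie outside its window.
Gbp2, chr3:142620584-142620633, plus strand: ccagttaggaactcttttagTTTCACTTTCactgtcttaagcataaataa
Gbp3, chr3:142559979-142560034, plus strand: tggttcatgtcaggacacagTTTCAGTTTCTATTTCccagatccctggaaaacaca
Gbp5, chr3:142496749-142496798, plus strand: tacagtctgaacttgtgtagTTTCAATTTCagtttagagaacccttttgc
Gbp7, chr3:142530210-142530312, plus strand: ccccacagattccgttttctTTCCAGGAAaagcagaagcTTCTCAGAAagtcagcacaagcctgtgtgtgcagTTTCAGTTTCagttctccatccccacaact
Gbp2b, chr3:142594690-142594739, plus strand: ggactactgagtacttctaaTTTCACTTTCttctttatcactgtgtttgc
Irgm1, chr11:48871415-48871470, minus strand: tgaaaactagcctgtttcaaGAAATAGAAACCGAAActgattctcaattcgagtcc

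Counted from the RefSeq start, the first base of the ISRE core lay 59 bases upstream in *Gbp2*, 45 in *Gbp3*, 165 in *Gbp5*, 53 in *Gbp7* and 30 in *Irgm1*. RefSeq starts can differ from the starts of the spans given above, and the cores of *Gbp2*, *Gbp5*, *Irgm1* and *Irgm2* lie inside those spans. *Gbp2b*, at 3.53 CPM, had the same ISRE letters as *Gbp2* (GAAAGTGAAA on the opposite strand), 137 bases upstream. A match of this kind was therefore present at both ends of the range of levels on chromosome 3.

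*Igtp* and *Irgm2* shared an arrangement in which a GAS is followed after 2 bases by an ISRE core. This arrangement (TTCNNNGAA, any 2 bases, GAAA, any 2 bases, GAAA) was searched for on both strands after these matches had been seen, and it occurred in 5 of the 32851 promoters (0.0152%). All 5 were on chromosome 11, in *Igtp*, *Irgm2*, *Tgtp1*, *Tgtp2* and *Gm12185*, a gene that overlaps *Tgtp1*. Several of these genes are close paralogs, so their promoters are not independent of each other. The windows of *Igtp* and *Irgm2* were identical at 59 of 61 bases, against 39 of 61 for *Igtp* and *Tgtp1* and 47 of 61 for *Tgtp1* and *Tgtp2*. They are given to show the spacing, with the GAS and then the ISRE core in capitals.
Igtp, chr11:58199491-58199551, plus strand: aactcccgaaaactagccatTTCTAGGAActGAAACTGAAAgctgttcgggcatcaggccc
Irgm2, chr11:58214882-58214942, plus strand: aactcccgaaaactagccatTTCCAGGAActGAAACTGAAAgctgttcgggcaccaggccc
Tgtp1, chr11:48992294-48992354, minus strand: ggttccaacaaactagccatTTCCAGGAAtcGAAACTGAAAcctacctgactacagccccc
Tgtp2, chr11:49064253-49064313, minus strand: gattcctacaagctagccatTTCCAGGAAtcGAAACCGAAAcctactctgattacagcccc

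*Igtp* and *Irgm2*, with nearly the same window, differed 2.49-fold in reads per kilobase of exon and 1.36-fold in CPM. *Tgtp1* and *Tgtp2* had 15629 and 20585 reads per kilobase.

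Genes on the route from IFN to these GTPases were read in the same library. All 20 genes of a pathway list had reads, as had 17664 of all 52550 genes listed. In CPM 12 of the 20 were above percentile 90, but 0 of the 5 ligands were, and *Ifng* and *Ifna4* were below the library median. Per kilobase of exon the count above percentile 90 was again 12, with 1 ligand among them, *Ifna5* at percentile 92.8. On that scale *Ifng* and *Ifna4* were above the library median of 59.6 reads. The list had a median of 174.8 CPM and 1336 reads per kilobase of exon, against 3672 reads per kilobase for the 10 GTPases. The IFN genes are short. *Ifna5* had 23.1 CPM, *Ifna2* 14.3, *Ifnb1* 13.7 and *Ifna4* 4.97, and their reads per kilobase of exon were 1270.2, 436, 572 and 278. *Ifng*, the classical inducer of GBPs and IRGs, had 108 reads, 3.44 CPM and 83.4 reads per kilobase, and same-strand exons of other genes covered 25.9% of its exon bases. Receptor subunits for type I IFN were at 562 CPM (*Ifnar1*) and 406 CPM (*Ifnar2*), and those for IFN-γ at 49.3 CPM (*Ifngr1*, the ligand-binding chain) and 149 CPM (*Ifngr2*). Per kilobase of exon this gave 2974 reads for *Ifnar1* and 3831 for *Ifnar2*, against 543 for *Ifngr1* and 1246 for *Ifngr2*.

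Between receptor and promoter, the receptor-bound kinases *Jak2*, *Tyk2* and *Jak1* had 494, 433 and 200.2 CPM. *Stat2* and *Irf9*, whose products act together at the ISRE, had 1122 and 338 CPM. *Irf8*, a factor on which pDC and conventional DC development draw, had 2967 CPM, and *Irf1*, a main activator of GBP genes, had 366 CPM, while the repressor *Irf2* had 89.1 CPM. *Irf8* had 13209 reads per kilobase of exon, between *Gbp2* and *Igtp*. Of the genes that dampen the response, *Usp18*, which blocks signaling at the type I IFN receptor, had 2894 CPM, *Socs1* had 129.8 and *Socs3* had 26.7.

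Other IFN-induced families gave a scale for the GTPases. Per kilobase of exon the 6 IFIT genes had a median of 20258 reads, 5.52-fold above the median of the 10 GTPases. The 8 genes of the ISG15 pathway with *Mx1*, *Mx2* and *Rsad2* had a median of 7253 reads per kilobase, 1.97-fold above. The 8 OAS genes had a median of 3679, and the median of the GTPases was 0.998 times it. In CPM, with no length, the medians were 1507 for IFIT, 763 for the ISG15 and Mx list and 644 for OAS, against 529.8 for the GTPases. *Gbp2*, at 20875 reads per kilobase, was close to *Ifit1* at 20744 and *Rsad2* (viperin) at 20642, and below *Ifit3*, the highest IFIT gene on this scale, at 55504. *Gbp5* lay below *Mx2*, the lowest of the ISG15 and Mx list at 1633, but above *Ifit1bl2* at 76.3 and *Oas1c* at 123.

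**Figure D3:**
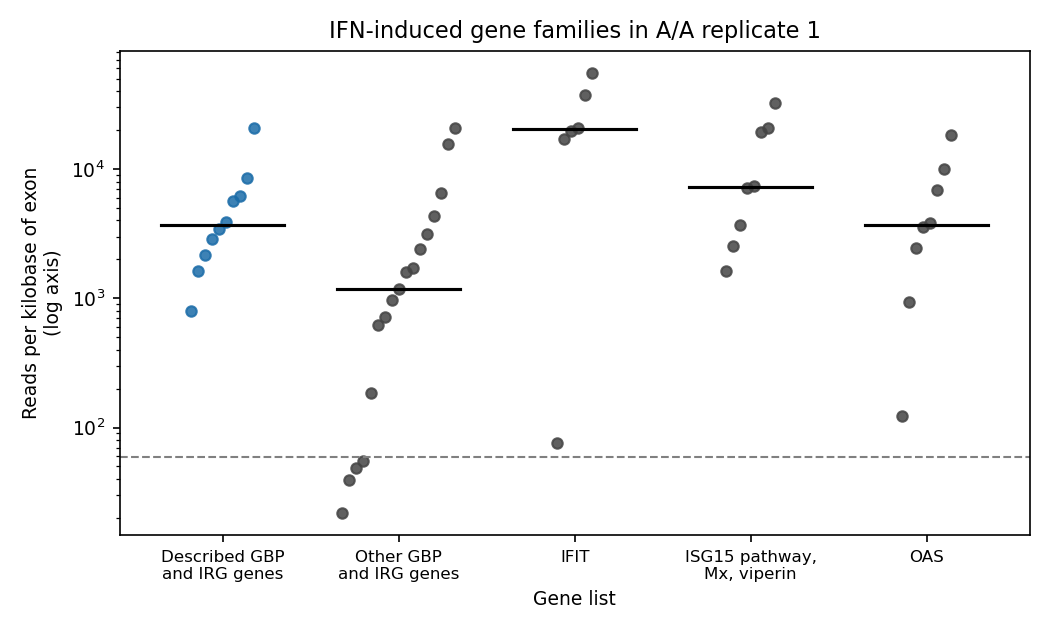
Reads per kilobase of exon (log axis) of single genes (points) in 5 gene lists in A/A replicate 1. Horizontal bars are list medians, and the dashed line is the median of all genes with reads. With no unstimulated sample, IFN induction of the genes was not measured. The medians were 3672 for the 10 described GTPases, 1169.6 for the other 17 GBP and IRG genes, 20258 for IFIT, 7253 for the ISG15 and Mx list and 3679 for the OAS list.

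Genes for the machinery that GBPs and IRGs work with had lower list medians per kilobase of exon than the 10 GTPases. The ubiquitin-like ATG8 proteins and their conjugation enzymes direct IRGs to vacuoles, and the 10 genes of this list had a median of 63.6 CPM and 768 reads per kilobase of exon. *Gabarap* was its highest gene at 8047 reads per kilobase and *Atg16l1* its lowest at 94.9. The enzymes that attach and process the lipid anchor of some GBPs formed a list of 5 genes with a median of 30.2 CPM and 169 reads per kilobase, from 52.7 for *Fntb*, a farnesyltransferase subunit, to 455 for *Rce1*, a protease that trims the prenylated end. Inflammasome genes, which act once GBPs have exposed bacterial products, had a median of 35.0 CPM and 314 reads per kilobase over 9 genes. The pore-forming effector *Gsdmd* was highest at 3169 reads per kilobase, and the LPS-sensing caspase gene *Casp4* had 1140.2. *Casp1* had 2254 reads per kilobase and the DNA sensor *Aim2* 314, while *Nlrp3*, the sensor linked to Gbp5, was the lowest at 19.7. A list of vacuole-associated factors, mostly galectins and ubiquitin ligases or adaptors, had a median of 120.7 CPM and 681 reads per kilobase over 9 genes. *Lgals3* was the highest at 34532 reads per kilobase, *Sqstm1* (p62) had 24469, *Lgals9* 8325 and the ubiquitin ligase *Rnf213* 681, and *Rabgef1* was the lowest at 226.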

How the data were processed

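RNA of sorted splenic pDCs was sequenced as mRNA libraries, and the authors compared genotypes with DESeq2. The submitters' processing notes name HISAT2, StringTie, mm8 and mm10, without versions. The counting tool, annotation release and use of strand are not given in the sources used here. The authors deposited a normalized signal for each gene with no stated unit, and 100% of values above 0 were whole multiples of 1.19 (tolerance 0.01 reads), as counts divided by a library factor of 0.839 are. The unit was inferred from the values, and dividing by this step gave the reads. Gene identifiers matched GENCODE M21 for 99.7%, of which 95.2% had identical coordinates. Of the 10 genes only *Iigp1* did not. Lengths are the union of annotated exons. Percentiles take ties at their midpoint, and log2 levels used a pseudocount of 1 CPM. Coding sequences were aligned pairwise, and identity counts aligned bases. Levels and intervals were computed in Python 3.11.15 (numpy 2.4.6, pandas 2.3.3, scipy 1.17.1), alignments with Biopython 1.88 and plots with matplotlib 3.10.9. Read recovery was tested on 3 libraries simulated as counts divided by a known factor, and 100% of genes were recovered exactly. This checks the arithmetic only, because the simulation assumes the form that was inferred for the deposited values. The genes named are the 10 GTPases, their neighbours, and the members of each list by role or as highest, median or lowest, mostly per kilobase of exon. *Casp1*, *Casp4*, *Aim2*, *Lgals3*, *Lgals9*, *Rnf213*, *Clec9a*, *Zbtb46*, *Cox6a2* and *Klk1* and the OAS, IFIT and Mx genes set beside *Gbp2* and *Gbp5* were named after their values were seen, as were the markers and list genes given as highest or lowest per kilobase. The 10 genes and all lists were chosen with earlier results of these data known. Protein sequences were not used here. A few genes first placed on these lists are not reported here and were taken out of the list values after these had been seen, and the values with them are not given. Alternatives were other totals, percentile backgrounds, lengths and pseudocounts.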

Additional observations from a re-analysis of the deposited data

How the results depend on the processing

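No paired analysis was possible because 1 library of 1 genotype was used. The summed level of the 10 genes (6749.65 CPM) became 7478 with the 10 highest genes left out of the total, 7024 with a protein-coding total and 5077 without *Gbp2*. The median (529.8 CPM) became 587 and 551 with these totals and 289 over the whole family. Levels rise with a smaller total by construction. The median percentile (98.3) became 99.4 over all genes listed, 97.9 over genes with at least 10 reads, 97.6 over protein-coding genes with reads and 97.5 by reads per kilobase of exon. Of the 10 places in the order per length, 6 held with the longest transcript, 3 with the longest coding sequence and 3 in CPM. The folds of *Igtp* and *Irgm1* over *Irgm2* and of *Gbp4* over *Gbp8*, recomputed with these alternatives after the data were seen, all moved beyond counting error. Multiplying each level by the share of exon bases free of other genes lowered 5 of 10 beyond counting error. In CPM this scaling also put *Gbp6* below *Gbp4*. It is arithmetic on the annotation and no test of the reads. A pseudocount of 0.1 moved 0 of 10. Depth did not limit these genes, the lowest of which had 5305 reads. How reads of shared sequence were assigned, as for *Gbp6*, was not tested.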
